A study of Mus musculus with 6 samples.

Results

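Interferon-stimulated genes are the genes that cells switch on when interferon reaches them, and 43 of them were followed here in fibroblasts from mouse embryos, 2 days into their reprogramming to pluripotent cells. The 43 genes were taken by name from a list of well-known members, and all 43 were among the 18303 genes of the deposited table. The list was chosen with earlier results of these data known. Shares of members set beside those of all genes below therefore describe this list and are no independent test. A mean of at least 1 RPKM (reads per kilobase of gene, scaled to library size) over the 6 libraries was reached by 38 members, which are called expressed below, against 11939 genes in all. The 5 others, Mx1, Rsad2, Iigp1, Ifi44 and Dhx58, were not tested.

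All 6 libraries came from fibroblasts of the strain CBA/CaJ X C57BL/6J that were transfected with a short hairpin RNA (shRNA) and kept in the chemically defined medium iCD1. The control group, shLuc, carried a hairpin against luciferase and had 2 libraries. The other groups had 1 library each, namely shEtnk1/2 (hairpins against both ethanolamine kinases), shPcyt2 (against Pcyt2, the enzyme of the next step), Etn-deprived (shLuc cells in iCD1 lacking ethanolamine) and shPebp1 (against phosphatidylethanolamine-binding protein 1). The first 3 of these were meant to inhibit the CDP-ethanolamine pathway, which makes the membrane lipid phosphatidylethanolamine. The labels give neither the way the reprogramming factors were delivered nor a statement that the shLuc libraries were separate cultures, so p-values measure only the spread between these samples. The other libraries have no replicate, so their differences have no replicate check of their own.

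As background, type I interferons are secreted when a cell detects foreign or misplaced nucleic acid. They bind a receptor coupled to the kinases Jak1 and Tyk2, which activate transcription factors, Stat2 with Irf9 among them, that bind the interferon-stimulated response element in front of target genes. Interferon gamma acts through another receptor and on gamma-activated sites. Fibroblasts respond to both and keep a low level of many of these genes without infection.

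Of the 11 members furthest outside the controls in at least 1 comparison, 6 had a match to an interferon motif before the start site, Oasl2 and Cmpk2 had none in their window, and Rtp4, Usp18 and Parp14 were not searched. Below are the stretches of the 6 before the start site, 5′ to 3′ on the strand of the gene, credited to RefSeq on build GRCm38.p6, with motif letters in capitals. They were chosen for having a match as well as for leading a comparison, so they do not stand for all leading members, and Irf1 and Psmb8 were added, after their values were seen, as members with the gamma type of site alone.
Cxcl10 (chr5:92349063-92349132, minus strand): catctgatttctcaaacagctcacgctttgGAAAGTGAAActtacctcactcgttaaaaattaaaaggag
Isg15 (chr4:156200845-156200926, minus strand): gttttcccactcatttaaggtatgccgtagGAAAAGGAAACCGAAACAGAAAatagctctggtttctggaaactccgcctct
Ifit1 (chr19:34640755-34640843, plus strand): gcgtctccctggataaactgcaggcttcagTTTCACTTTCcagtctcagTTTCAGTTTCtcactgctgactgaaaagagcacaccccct
Ifit3 (chr19:34583343-34583446, plus strand): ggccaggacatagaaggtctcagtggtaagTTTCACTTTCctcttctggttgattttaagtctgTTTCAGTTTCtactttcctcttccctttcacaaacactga
Gbp2 (chr3:142620574-142620643, plus strand): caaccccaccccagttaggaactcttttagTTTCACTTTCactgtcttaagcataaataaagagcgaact
Igtp (chr11:58199481-58199555, plus strand): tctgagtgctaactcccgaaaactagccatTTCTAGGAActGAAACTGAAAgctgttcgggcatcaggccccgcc
Irf1 (chr11:53769894-53769962, plus strand): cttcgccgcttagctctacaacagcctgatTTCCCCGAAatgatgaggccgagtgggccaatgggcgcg
Psmb8 (chr17:34198068-34198136, plus strand): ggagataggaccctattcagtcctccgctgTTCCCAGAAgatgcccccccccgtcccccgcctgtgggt

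The letters searched, on both strands, were GAAA followed by any 2 letters and again GAAA, the core of the response element, and TTCNNNGAA, the core of the gamma-activated site, in a window from 250 bases before to 50 bases after the start site. On the other strand the first reads TTTC, any 2 letters and TTTC, and the second is its own reverse complement. Of the 38 expressed members 30 matched the promoter table, and of these 16 (53.3%) had the response element core, against 3.45% of the tested genes with a promoter in the table. The gamma-activated core stood in 9 of the 30 (30%), against 8.26% of the tested genes. Both cores stood in 5 members, and in Bst2 and Ifitm3 they overlapped. Isg15 has 3 overlapping copies of the first core, Ifit1 and Ifit3 have 2 separate copies each, and Igtp has 1 of each core, separated by 2 letters. The map of matches shows them mostly before the start site, with the response element cores of Cxcl10 and Stat2 over 200 bases away. A match is a run of letters and not a measured binding site.

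**Figure D1:**
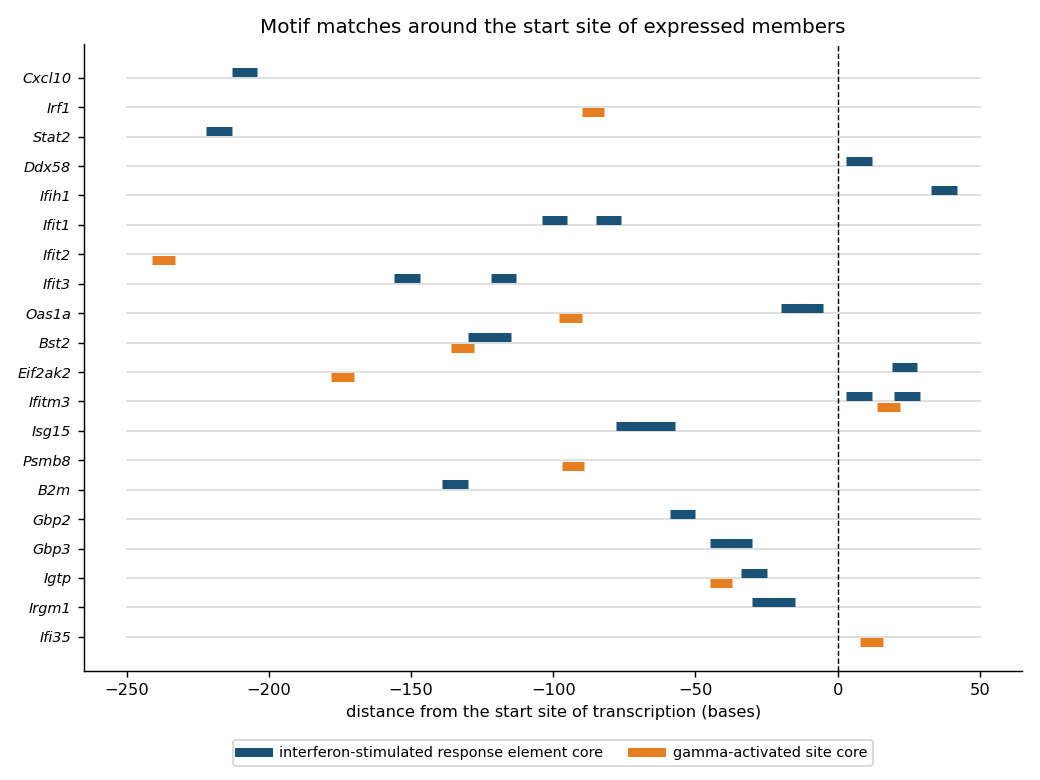
Positions of motif matches (horizontal axis, bases from the start site of transcription, dashed line at the start) in the 20 expressed members with at least 1 match, 1 row per gene. Blue bars are response element cores and orange bars gamma-activated site cores; adjoining copies, as in Isg15, Bst2 and Gbp3, merge into longer bars.

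Reads in genes ran from 18467583 to 20020465 per library. Etnk1 was at 12.5 RPKM in shEtnk1/2 against 21.0 and 21.4 in shLuc, Pcyt2 was at 29.9 RPKM in shPcyt2 against 42.0 and 40.0, and Etnk2 lay between 0.333 and 1.00 RPKM in all libraries. Pebp1 was at 99.6 RPKM in shPebp1 and 250.4 in shLuc replicate 1, and the library labelled shLuc replicate 2 had 100.7. Since that library goes against its label, counts and medians of each comparison below are also given against shLuc replicate 1 alone. All 10 fibroblast markers checked were expressed. Of 15 macrophage markers, 9 had a mean of at least 1 RPKM, with a summed level of 64.5 and 66.6 RPKM in shLuc, 76.4 in shEtnk1/2, 63.4 in shPcyt2, 67.5 in Etn-deprived and 58.0 in shPebp1, most of it from Lyz2 (without it 24.3 and 24.1 in shLuc, 23.9 in shEtnk1/2 and 19.7 to 24.7 in the others), while the leukocyte gene Ptprc stayed under 0.2 RPKM in every library; the part of these cells in the results below was not tested. Markers of plasmacytoid dendritic cells, T and NK cells and B cells were all under 1 RPKM on average, and of 6 endothelial markers only Tek was above it. In bulk RNA, fewer cells of a type and less RNA per cell cannot be told apart.

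The members were mostly weakly expressed in these cells. The median of their means was 5.70 RPKM against 12.0 for all tested genes, and 13 of the 38 had a mean under 3 RPKM. Only B2m, the light chain of MHC class I (mean 445.2 RPKM), and Ifitm3, a membrane protein that blocks virus entry (mean 230.1 RPKM), exceeded 100 RPKM. Of the interferon genes only Ifng, Ifnk and Ifnz were measured here, with at most 5 reads in any library. The other ligands, Ifnb1 and the Ifna genes among them, were not analysed here. Receptors were present, with Ifnar1 between 16.3 and 16.8 RPKM and Ifnar2 between 13.9 and 14.9 RPKM in all 6 libraries.

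The shLuc libraries were not alike in these genes. Of the 38 expressed members 27 were lower in replicate 2 than in replicate 1, where 48.9% of all tested genes were, and the median log2 difference was -0.11 for members against 0.00 for all genes. Replicate 2 held the lowest of the 6 values for 15 members and the highest for none, while for all tested genes it held the lowest in 10.7% and the highest in 15.1%. The members furthest apart in ratio were Isg15, at 48.3% of replicate 1, and Psmb9, at 42.7%. A difference from the shLuc mean therefore rests in part on this library, and the plot of differences from each control shows it as points above the diagonal.

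**Figure D2:**
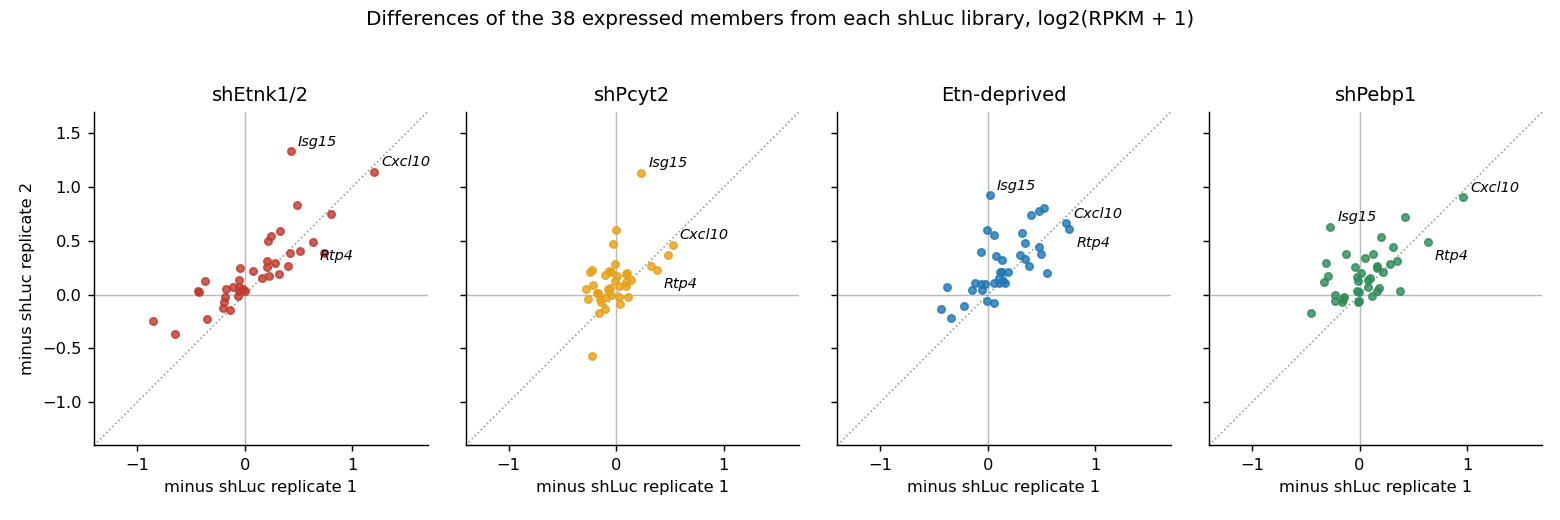
Difference of each treated library from shLuc replicate 1 (horizontal axis) and from shLuc replicate 2 (vertical axis) in log2(RPKM + 1), 1 point per expressed member, 1 panel per library; the dotted line marks equal differences. Cxcl10 and Rtp4 lie near the line in every panel, and Isg15 lies far above it because its shLuc values were 9.05 and 4.37 RPKM.

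The study asked how inhibition of the pathway changes the cells. In shEtnk1/2 a narrow majority of the expressed interferon-stimulated genes lay above both controls. This held for 20 of 38 expressed members (52.6%) where 25% of all tested genes did, and 8 members (21.1%) lay below both where 51.9% of all genes did. The median log2 difference was 0.13 for members and -0.06 for all genes, and against shLuc replicate 1 alone it was 0.04 and -0.06, with 20 members above that library (36.7% of all genes). Weakly expressed members weigh in this. At a mean of at least 5 RPKM 8 of 20 members lay above both controls (24.4% of all genes), with a median of 0.020. On log2(RPKM + 1), with limma and Benjamini-Hochberg adjustment over all genes, 2 members were called, both higher, beside 3.46% of all genes, and 11 of 38 members had an unadjusted p under 0.05 (19.1% of all genes). The 2 were Cxcl10 and Rtp4. Cxcl10 reached the filter of 1 RPKM only through its level in this library, so its calls here are not independent of the filter. This library also had the most Lyz2 (52.5 against 40.2 and 42.6 RPKM in shLuc), while the other macrophage markers summed to 23.9 against 24.3 and 24.1 RPKM. In limma-voom on the recovered reads 5 were called (6.62% of all genes), Cxcl10, Ifit1, Ifit3, Isg15 and B2m. Without shLuc replicate 2 limma called no member. The spread then came from the other pathway libraries and 1 control was left, so this says little about the members.

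Members above both shLuc libraries numbered 25 of 38 (65.8%) in Etn-deprived, where 36% of all tested genes were, and only 4 (10.5%) lay below both, where 41.9% of all genes did. The median log2 difference was 0.19 for members and -0.01 for all genes, and 0.11 and -0.01 against shLuc replicate 1 alone, above which 26 members lay (47.0% of all genes). Rtp4 was the 1 member that limma called, beside 3.8% of all genes, while 12 of 38 had an unadjusted p under 0.05 (19.9% of all genes). With limma-voom 5 were called (5.86% of all genes), all higher, namely Rtp4, Oasl2, Ddx58, Eif2ak2 and Samd9l. Without shLuc replicate 2 limma called no member, but 1 control was then left, so this says little about the members.

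In shPcyt2 the members' share above the controls was close to that of all genes and their share below was smaller, with 12 of 38 (31.6%) above both shLuc libraries where 29% of all tested genes were, and 8 (21.1%) below both where 39.4% of all genes were. Their median was 0.04, and -0.04 against shLuc replicate 1 alone, with -0.02 for all genes in both cases, and 15 members were above that library (44.7% of all genes). Neither limma (0.109% of all genes) nor limma-voom (0.310%) called a member, and 3 of 38 had an unadjusted p under 0.05 in limma (5.97% of all genes).

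The shPebp1 library had 19 of 38 members (50%) above both shLuc libraries, where 36.6% of all tested genes were, and 8 (21.1%) below both, where 31.7% of all genes were. Their median was 0.11, and 0.03 against shLuc replicate 1 alone, with 0.01 for all genes in both cases, and 20 members were above that library (52.5% of all genes). No member was called by limma (0.101% of all genes) or limma-voom (0.109%), and 4 of 38 had an unadjusted p under 0.05 in limma (5.85% of all genes). The library labelled shLuc replicate 2 had as little Pebp1 as this one, and 29 of 38 members were higher in shPebp1 than in it (52.3% of all genes).

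**Figure D3:**
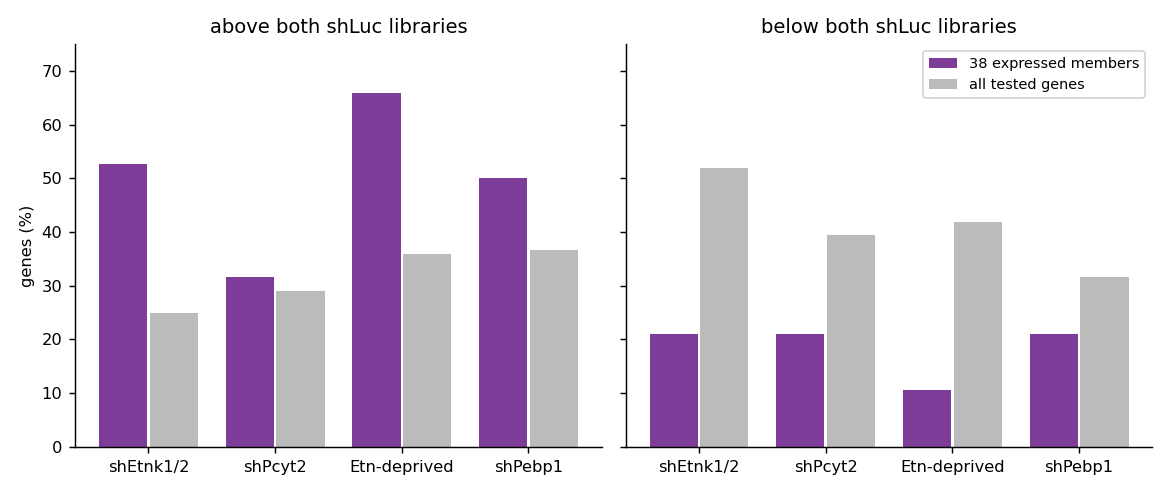
Percent of genes above (left) or below (right) both shLuc libraries in each treated library, for the 38 expressed members (purple) and all 11939 tested genes (grey). The members' share above is 65.8% in Etn-deprived and 52.6% in shEtnk1/2, against 36% and 25% of all genes, and in shPcyt2 it is 31.6% against 29%.

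Taken as 1 group against shLuc, the 3 pathway libraries together lay above both controls for 9 members (23.7%), where 7.82% of all tested genes did. These were Cxcl10, Rtp4, Isg15, Irf7, Stat2, Parp9, Parp14, B2m and Igtp. All but Isg15 and Parp9 were also above both controls in shPebp1, and the share of all genes for this was not counted. Cxcl10 reached the filter only with its shEtnk1/2 value included. Only Ifi35 (2.63%) had all 3 libraries below both controls, where 15.9% of all genes did. The limma fit of 3 against 2 libraries called no member and no other gene (0% of all genes). In it 4 members had an unadjusted p below 0.05 (6.06% of all genes), and limma-voom called no member and no other gene. The median was 0.12 for members and -0.03 for all genes, and 0.10 and -0.03 against shLuc replicate 1 alone. All 3 libraries were above replicate 1 for 12 members (17.4% of all genes) and above replicate 2 for 20 (18.0%), and without shPcyt2 18 members were above both controls (15.9%). The comparisons share the shLuc libraries, so a low control value counts in all of them.

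Cxcl10 encodes a chemokine that draws T cells and is induced by both kinds of interferon. It lies on mm10 chromosome 5, from 92346639 to 92348889. It had 0.316 and 0.370 RPKM in shLuc, from 7 and 8 reads. Its mean over the 6 libraries, 1.06 RPKM, reached the filter only with the shEtnk1/2 value included. In the treated libraries it had 2.02 RPKM in shEtnk1/2, 0.892 in shPcyt2, 1.17 in Etn-deprived and 1.56 in shPebp1. All 4 treated libraries lay above both controls, and the 95% Poisson intervals, which cover counting error only, reached from 1.47 to 2.72 RPKM in shEtnk1/2 and up to 0.650 and 0.728 RPKM in shLuc. In shEtnk1/2 this was 5.91-fold over the shLuc mean and a difference of 1.17 on the log2(RPKM + 1) scale (SE 0.21; limma, adjusted p = 0.0198, 0.00351 to 0.412 over its alternatives). The differences of 0.93 in shPebp1 (adjusted p = 0.323), 0.69 in Etn-deprived (adjusted p = 0.108) and 0.49 in shPcyt2 (adjusted p = 0.836) did not pass. The related chemokine genes Cxcl9 and Cxcl11 had at most 5 reads in any library.

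Rtp4 encodes an interferon-induced member of the receptor transporter proteins (chromosome 16, 23609919 to 23614222). Its level was 7.57 and 8.46 RPKM in shLuc, 12.3 in shEtnk1/2, 10.1 in shPcyt2, 13.5 in Etn-deprived and 12.3 in shPebp1. Every treated library was above both controls. The share of all genes with every treated library on the same side was not counted, here or for the other members so described. All comparisons share the same controls. Rtp4 rose by 0.68 (SE 0.11; limma, adjusted p = 0.00962, 0.00296 to 0.383 over its alternatives) in Etn-deprived and by 0.56 (adjusted p = 0.0261, 0.0112 to 1.00 over its alternatives) in shEtnk1/2. In shPebp1 the same difference of 0.56 had a limma adjusted p of 0.175. Without shLuc replicate 2 or without replicate 1 neither Cxcl10 nor Rtp4 was called in any comparison.

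Among the other members outside the named roles, Xaf1, an inhibitor of the apoptosis inhibitor Xiap, had 5.04 and 4.05 RPKM in shLuc and 6.60, 4.85, 6.52 and 5.58 in shEtnk1/2, shPcyt2, Etn-deprived and shPebp1. Only shPcyt2 lay within the shLuc range, and no difference passed limma. Ifi35 had 13.6 and 12.5 RPKM in shLuc and 10.5, 12.1, 11.5 and 12.1 in the same order, below both controls in all 4. Ifi27 stayed between 24.2 and 29.3 RPKM.

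The transcription factors among the members did not all differ in the same way. Stat2, a subunit of the complex that binds the response element, had 12.3 and 11.4 RPKM in shLuc and 14.3, 13.1, 13.3 and 13.9 in shEtnk1/2, shPcyt2, Etn-deprived and shPebp1. Irf7, which amplifies type I interferon, had 2.75 and 2.73 RPKM in shLuc and 3.57, 3.11, 3.04 and 3.55 in the same order. Both genes were above both controls in all 4 libraries, without a call by limma. Their differences from the shLuc mean were 0.11 to 0.29 on the log2 scale. Irf9, the DNA-binding partner of Stat2, ran from 15.2 to 18.4 RPKM and Irf1, whose window holds a gamma-activated core, from 7.66 to 9.19 RPKM. The treated libraries lay within or below the shLuc range, except Irf1 in shPcyt2, just above it at 9.19 RPKM.

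All 3 expressed sensors of foreign nucleic acid were above both controls in Etn-deprived, where 36% of all tested genes were. Ddx58 (RIG-I), which detects viral RNA, had 11.4 and 10.9 RPKM in shLuc, 14.3 in Etn-deprived and 10.7 to 11.3 in the other 3 libraries. The difference of 0.33 in Etn-deprived did not pass limma (adjusted p = 0.110) and passed limma-voom. Ifih1 (MDA5), a sensor of long double-stranded RNA, had 2.34 and 2.36 RPKM in shLuc, 2.67 in Etn-deprived, 2.52 in shPebp1, 2.04 in shEtnk1/2 and 1.99 in shPcyt2. Zbp1, a sensor of Z-form nucleic acid, had 8.17 and 5.50 RPKM in shLuc and 8.53 in Etn-deprived, and the other 3 libraries lay between its controls. Dhx58, an unexpressed member of the same family, had 60 reads in Etn-deprived against 47 and 35 in shLuc.

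Of the 11 expressed direct antiviral effectors 7 were above both controls in shEtnk1/2, 6 in Etn-deprived, 4 in shPebp1 and 1 in shPcyt2. Of all tested genes 25%, 36%, 36.6% and 29% were, in the same order. Ifit1, which binds foreign RNA ends (chromosome 19, 34640889 to 34650009), had 2.39 and 1.68 RPKM in shLuc, 3.76 in shEtnk1/2, 1.78 in shPcyt2, 3.46 in Etn-deprived and 2.89 in shPebp1. Its neighbour Ifit3 (34583529 to 34588982) had 1.14 and 1.22 RPKM in shLuc and 2.74 in shEtnk1/2, but 1.13 in both Etn-deprived and shPebp1, and 1.68 in shPcyt2. Ifit1 was thus above both controls in 3 libraries, and Ifit3 in shEtnk1/2 and shPcyt2. The differences in shEtnk1/2 were 0.66 (SE 0.19; limma, adjusted p = 0.0975) for Ifit1 and 0.78 (SE 0.19; adjusted p = 0.0609) for Ifit3, and both passed limma-voom, with adjusted p over the alternatives of 0.0116 to 1.00 and 0.0183 to 0.925. Ifit2, the third gene of the cluster, stayed between 7.29 and 8.79 RPKM. Tested directly, Ifit3 in Etn-deprived minus shEtnk1/2 was -0.81 (SE 0.22; limma, adjusted p = 0.141).

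Other effectors were highest in Etn-deprived. Oasl2, of the family of 2′-5′ oligoadenylate synthetases, had 4.02 and 3.11 RPKM in shLuc, 4.83 in shEtnk1/2, 3.65 in shPcyt2, 6.19 in Etn-deprived and 4.21 in shPebp1. Eif2ak2 (PKR), the kinase that stops translation on double-stranded RNA, had 15.4 and 13.9 RPKM in shLuc, 19.8 in Etn-deprived and 15.3 to 16.3 in the other 3. Samd9l, a growth-restraining antiviral factor, had 3.89 and 4.32 RPKM in shLuc, 5.90 in Etn-deprived, 5.09 in shEtnk1/2 and 4.02 and 4.28 in shPcyt2 and shPebp1. In Etn-deprived their log2 differences were 0.66, 0.41 and 0.44, with limma adjusted p of 0.0532, 0.0533 and 0.124. The same 3 genes and Ddx58 were the members that limma-voom called in Etn-deprived minus shPcyt2 (6.21% of all genes), where limma called none (3.22%).

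The remaining effectors were mixed. Mx2, a dynamin-like GTPase, had 0.921 and 0.964 RPKM in shLuc, 1.57 in shEtnk1/2, 0.788 in shPcyt2, 1.66 in Etn-deprived and 1.44 in shPebp1. Bst2 (tetherin), which holds virions at the membrane, had 39.8 and 32.2 RPKM in shLuc, 29.2 in Etn-deprived and 38.5 to 39.5 in the other 3. Cmpk2, a mitochondrial nucleotide kinase, was highest in shPebp1, with 4.78 RPKM against 3.65 and 3.27 in shLuc. Ifitm3 (217.2 to 247.3 RPKM) had every treated library within the shLuc range, and so did Oas1a (2.34 to 3.60 RPKM). None of these was called.

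Isg15 encodes a ubiquitin-like protein that is joined to other proteins during the response (chromosome 4, 156199424 to 156200818). It had 9.05 and 4.37 RPKM in shLuc, 12.5 in shEtnk1/2, 10.8 in shPcyt2, 9.17 in Etn-deprived and 7.32 in shPebp1. The controls lay so far apart that Etn-deprived exceeded the higher one only slightly and shPebp1 lay between them. Usp18, which removes Isg15 and damps receptor signalling, had 1.57 and 2.27 RPKM in shLuc, 3.29 in shEtnk1/2, 1.195 in shPcyt2, 2.76 in Etn-deprived and 2.34 in shPebp1. It was the member with the smallest adjusted p between shEtnk1/2 and shPcyt2, with a difference of 0.97 (SE 0.23; limma, adjusted p = 0.0905). Parp14, an ADP-ribosyltransferase, had 1.19 and 1.21 RPKM in shLuc and 1.45, 1.34, 1.78 and 1.55 in shEtnk1/2, shPcyt2, Etn-deprived and shPebp1, above both controls in all 4. Parp9 and Dtx3l, whose proteins form a complex, ran from 9.71 to 11.4 and from 5.11 to 6.88 RPKM, and the ubiquitin ligase gene Trim25 from 17.3 to 19.6 RPKM. All 6 genes of this group were above both controls in Etn-deprived, where 36% of all tested genes were.

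In antigen processing some members had their lowest value in shEtnk1/2. Psmb8 and Psmb9, catalytic subunits of the immunoproteasome that cuts peptides for MHC class I, had 0.910 and 0.377 RPKM in shEtnk1/2. Psmb8 had 1.99 and 1.45 RPKM in shLuc, 1.86 in shPcyt2, 2.15 in Etn-deprived and 1.19 in shPebp1, and Psmb9 had 1.48 and 0.631, then 1.47, 1.47 and 1.00. The shEtnk1/2 library was below both controls for both genes, with 22 and 6 reads. The differences of -0.50 and -0.55 did not pass limma, and Etn-deprived minus shEtnk1/2 gave 0.72 (adjusted p = 0.204) for Psmb8 and 0.84 (adjusted p = 0.282) for Psmb9. The mean of Psmb9, 1.07 RPKM, would miss the filter without Etn-deprived, shPcyt2 or shLuc replicate 1, where it was high. Its differences from shEtnk1/2 are therefore not independent of the filter. The peptide transporter genes Tap1 and Tap2 stayed between 6.05 and 7.93 and between 3.53 and 5.18 RPKM, with Tap1 lowest in Etn-deprived. B2m had 425.6 and 410.3 RPKM in shLuc, 491.5 in shEtnk1/2, 434.4 in shPcyt2, 458.4 in Etn-deprived and 450.8 in shPebp1, above both controls in all 4. The 0.23 of B2m in shEtnk1/2 (SE 0.06; limma, adjusted p = 0.0693) passed limma-voom.

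The interferon-inducible GTPases act on the membranes around intracellular parasites and bacteria. Gbp2 had 1.43 and 0.973 RPKM in shLuc, 1.88 in shEtnk1/2, 1.09 in shPcyt2, 2.39 in Etn-deprived and 2.25 in shPebp1. Igtp (Irgm3) had 1.62 and 1.83 RPKM in shLuc and 2.75, 2.65, 2.42 and 1.96 in shEtnk1/2, shPcyt2, Etn-deprived and shPebp1, above both controls in all 4. Irgm1 had 27.3 and 23.8 RPKM in shLuc and 30.03 in Etn-deprived, and Gbp3 had 1.02 and 1.21 RPKM in shLuc and 1.67 in shEtnk1/2. No GTPase was called by limma or limma-voom.

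**Figure D4:**
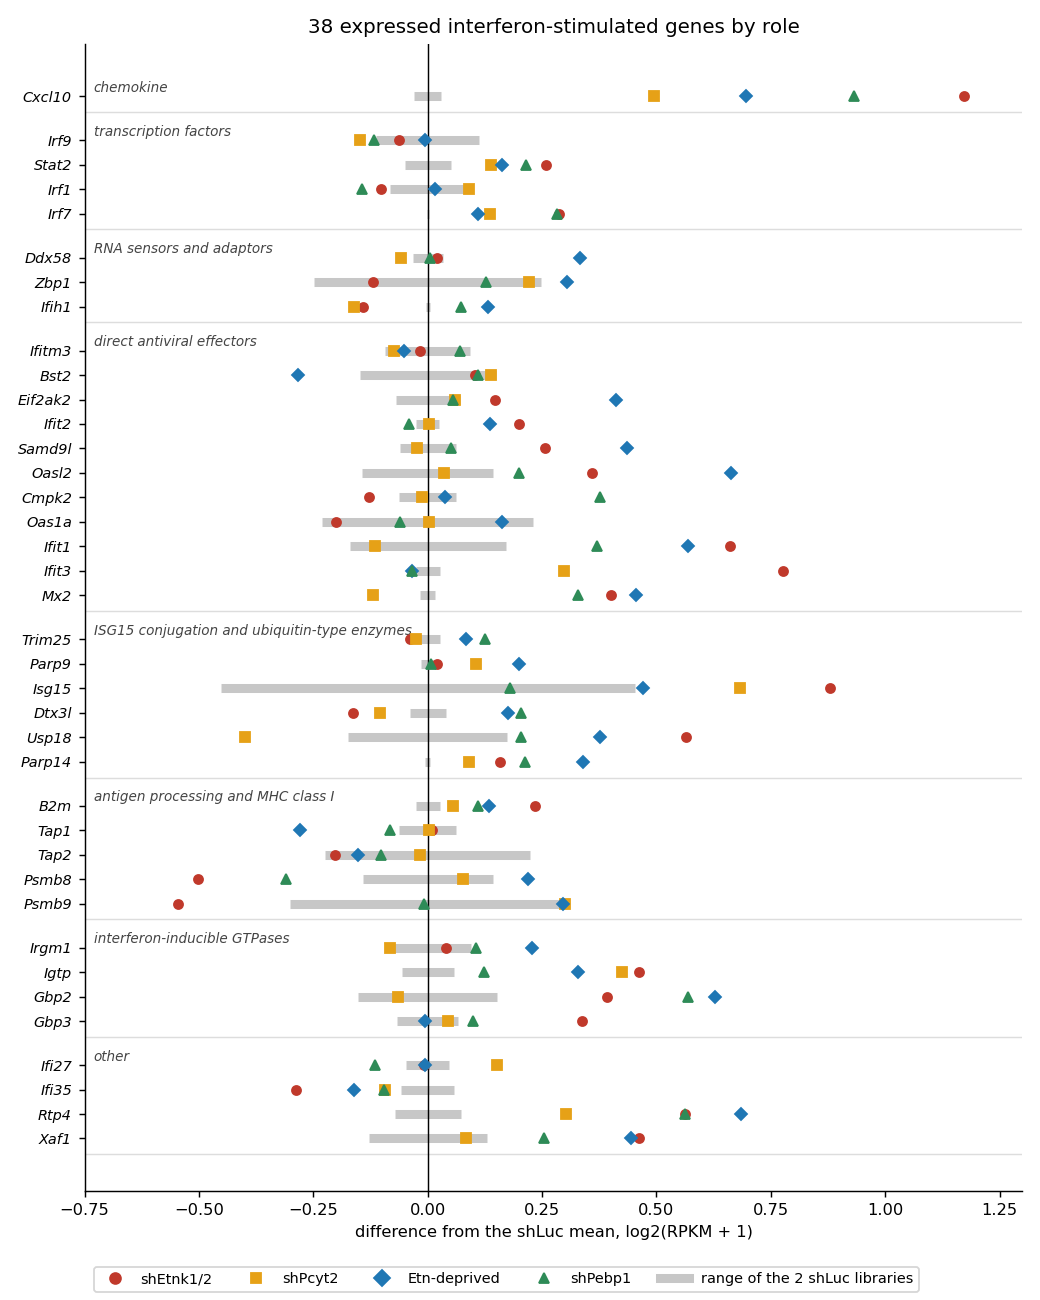
Difference of each treated library from the shLuc mean in log2(RPKM + 1) (horizontal axis) for the 38 expressed members, grouped by role and ordered by mean RPKM; the grey bar spans the 2 shLuc libraries. Symbols to the right of the bar are above both controls, as all 4 are for Cxcl10 and Rtp4, and the shEtnk1/2 circles of Psmb8 and Psmb9 lie to the left.

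**Figure D5:**
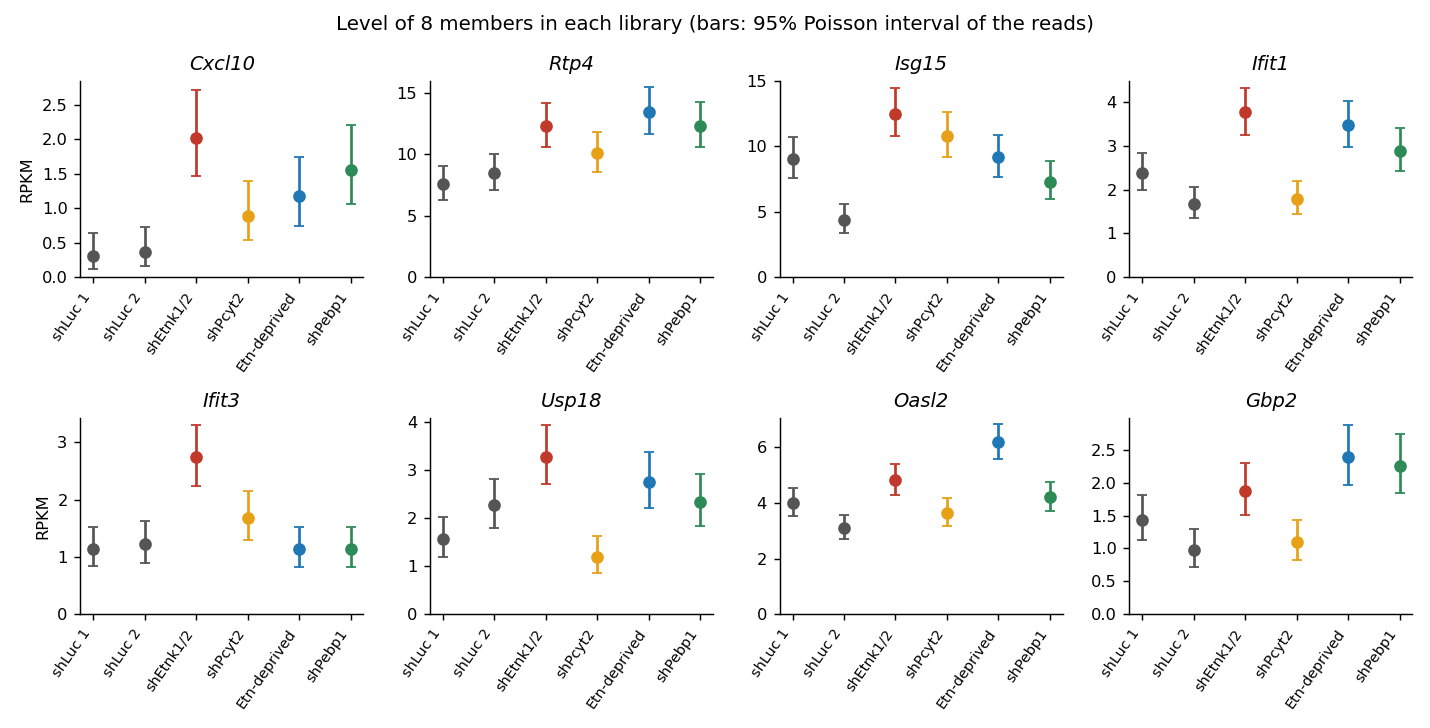
RPKM (vertical axis, from 0) of 8 members in each of the 6 libraries, with 95% Poisson intervals of the reads, which cover counting error only. The intervals of Cxcl10 in shEtnk1/2 and of both shLuc libraries do not overlap, the 2 shLuc values of Isg15 lie 9.05 to 4.37 RPKM apart, and Ifit3 is high in shEtnk1/2 but at shLuc levels in Etn-deprived and shPebp1.

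The 5 members below the filter had from 11 to 73 reads per library. Ifi44 had 73 reads in Etn-deprived against 42 and 27 in shLuc. Rsad2 (viperin) had 51 reads in shPebp1 against 15 and 38 in shLuc, and Mx1 had 27 against 11 and 17. Iigp1 had 43 reads in shEtnk1/2 against 29 and 17.

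Members with and without the response element core were set side by side as a description. In shEtnk1/2 the 16 with the core had a median difference of 0.25 and 10 of them lay above both controls, while the 14 whose window lacks it had -0.05 and 5, with 7 below both. Of all tested genes 25% lay above and 51.9% below both controls there. In Etn-deprived the medians were 0.20 and 0.12, with 11 and 8 above both controls, where 36% of all tested genes were. In shPcyt2 they were 0.05 and 0.00, and in shPebp1 0.11 and 0.02. The 8 members not searched had medians of 0.09, 0.32, 0.10 and 0.17 in the same order, above the core group in the last 3. Against shLuc replicate 1 alone the medians with and without the core were 0.21 and -0.12 in shEtnk1/2, 0.12 and 0.07 in Etn-deprived, -0.01 and -0.06 in shPcyt2, and 0.04 and 0.02 in shPebp1.

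Other genes of the interferon pathway were read from a second list of 101 names, of which 91 were in the table and 61 were expressed. None was called in shEtnk1/2, shPcyt2, shPebp1 or the pathway comparison (3.46%, 0.109%, 0.101% and 0% of all genes). In Etn-deprived limma called 2 of the 61, both higher, beside 3.8% of all genes. Unadjusted p were below 0.05 for 8 (13.1%), 4 (6.56%), 3 (4.92%) and 5 (8.20%) of the 61 in the comparisons without a call, where 19.1%, 5.97%, 5.85% and 6.06% of all genes were. For Etn-deprived the count was 15 (24.6%), where 19.9% of all genes were. In limma-voom 2 were called in shEtnk1/2 (6.62% of all genes), both higher, and 0 in shPcyt2, shPebp1 and the pathway comparison. Limma-voom called 6 in Etn-deprived (5.86% of all genes), of which 4 were higher and 2, Irf3 and Ifitm2, lower. The limma calls were Jak2, a kinase of cytokine receptors, and Socs3, a feedback inhibitor of cytokine signalling. The median of the 61 was 0.03 in shEtnk1/2, 0.02 in shPcyt2, 0.08 in Etn-deprived and 0.05 in shPebp1, and against shLuc replicate 1 alone 0.01, -0.01, 0.04 and -0.01. Among the 37 of them that are further interferon-stimulated genes, limma called none. Of these 18 (48.6%) lay above both controls in shEtnk1/2, 18 (48.6%) in shPcyt2, 20 (54.1%) in Etn-deprived and 17 (45.9%) in shPebp1, where 25%, 29%, 36% and 36.6% of all genes did. An unadjusted p below 0.05 was reached by 3 (8.11%), 2 (5.41%), 10 (27.0%) and 2 (5.41%), where 19.1%, 5.97%, 19.9% and 5.85% of all genes did. Limma-voom called 2, 0, 3 and 0, beside 6.62%, 0.310%, 5.86% and 0.109% of all genes.

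Jak2 had 15.0 and 15.4 RPKM in shLuc, 16.6 in shEtnk1/2, 14.6 in shPcyt2, 20.3 in Etn-deprived and 16.7 in shPebp1. Socs3 had 23.1 and 22.4 RPKM in shLuc, 19.2 in shEtnk1/2, 22.7 in shPcyt2, 29.8 in Etn-deprived and 25.4 in shPebp1. Both were highest in Etn-deprived, and Socs3 was below both controls in shEtnk1/2. In Etn-deprived Jak2 rose by 0.40 (SE 0.09; limma, adjusted p = 0.0463, 0.00093 to 0.637 over its alternatives) and Socs3 by 0.38 (SE 0.09; adjusted p = 0.0425, 0.00637 to 0.641 over its alternatives). With the trend in transcript length removed from each library both missed the threshold, at adjusted p of 0.0850 and 0.0664, and without shLuc replicate 2 at 0.561 and 0.641; without replicate 1 they missed it too.

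Differences between the 3 pathway libraries were also tested directly, each side being 1 library and the spread coming from the shLuc pair. By limma no member was called in shEtnk1/2 minus shPcyt2 (0.921% of all genes), Etn-deprived minus shPcyt2 (3.22%) or Etn-deprived minus shEtnk1/2 (0.854%). Members with an unadjusted p under 0.05 in limma numbered 7, 11 and 7, where 12.9%, 19.4% and 14.4% of all genes had one. Limma-voom called 0, 4 and 0 members, beside 2.12%, 6.21% and 3.07% of all genes. The smallest adjusted p were 0.0905, 0.102 and 0.141. These p do not show that the libraries were alike, since the SE of such a difference was 0.22 for Ifit3 and 0.23 for Usp18.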

How the data were processed

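Poly(A)-selected RNA was sequenced as paired ends, per the labels' protocols. The deposited table gives 1 RPKM value per gene and library, made by the authors; per the submitters' processing notes, the tools include Bowtie 0.12.2 and the build is mm10. Gene models, counting program, strand setting and the handling of reads that match several copies were not given in the sources used here, so values of the Oas, Ifit, Gbp, Irg and Mx families are uncertain.

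For all 18303 genes the RPKM values were whole multiples of a common step, within 0.0001 reads plus a relative 5e-08, and these whole numbers were used as reads, whether of reads or pairs. Genes whose mean reached 1 RPKM were tested on log2(RPKM + 1), which understates changes of low genes, with limma 3.58.1 (R 4.3.3), a trended robust empirical Bayes step and Benjamini-Hochberg adjustment, two-sided, threshold 0.05. The model of 5 group means has 1 residual degree of freedom, from the shLuc pair, and a prior of 9.24; each treated library is assumed to vary as shLuc did. The fit of 3 against 2 libraries has 3 and a prior of 6.37. The script was tested on simulated data. Alternatives were a pseudocount of 0.1, no filter, a mean of at least 5 RPKM, a common median ratio, limma-voom, removal of the trend in transcript length (lowess, span 0.3) and leaving out libraries. Named with values were members called, the 5 furthest outside both controls in each comparison and the 2 most abundant of each role; further members complete each role. The members and lists were chosen with earlier results of these data known. Of symbols on 2 lines (2), the line with the higher mean was kept. From the list of other pathway genes 1 gene is not reported here.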

Additional observations from a re-analysis of the deposited data

How the results depend on the processing

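Counts of members called were 0 in shEtnk1/2 and 0 in Etn-deprived without a filter, and 5 and 5 with limma-voom (6.62% and 5.86% of all genes). Without a filter no gene of any kind was called in shEtnk1/2, so the 0 there is not particular to the members. At a mean of at least 5 RPKM 2 members were called in Etn-deprived. For Etn-deprived the shares of all genes called under these filters are not given, so the counts say little about the members. Leaving out either shLuc library left 1 control, with the spread taken from other libraries, so a lack of calls there says little about the members. At a mean of at least 5 RPKM, which keeps 20 members, the shEtnk1/2 median was 0.020, and 8, 7, 13, 7 and 5 members lay above both controls in shEtnk1/2, shPcyt2, Etn-deprived, shPebp1 and the pathway comparison, where 24.4%, 29.4%, 36.1%, 38.2% and 7.51% of all genes did. Leaving out libraries gave medians of 0.042 to 0.16 (shEtnk1/2), -0.036 to 0.10 (shPcyt2), 0.11 to 0.21 (Etn-deprived), 0.03 to 0.16 (shPebp1) and 0.09 to 0.17 (pathway), the lowest without shLuc replicate 2 except in the pathway comparison, where it was without Etn-deprived. Members above the remaining controls then numbered 20 to 30, 15 to 27, 26 to 33, 20 to 29 and 9 to 20 of 38 (all genes 36.4 to 36.7%, 44.7 to 44.8%, 47.0 to 47.1%, 52.3 to 52.5% and 12.2 to 18.0%), and 18 in the pathway comparison without shPcyt2. The cause was not tested, beyond fewer genes tested or fewer samples. Of 221 values of single genes under alternatives, 197 kept direction and side of the threshold, 20 lost and 4 gained a call, and no called value changed sign. Most of the 221 belonged to genes without a call in the main fit, which had none to lose. The losses fell on Cxcl10 and Rtp4 in shEtnk1/2 and on Rtp4, Jak2 and Socs3 in Etn-deprived, so the calls were less stable than the 197 imply. Of 134 counts and medians 112 moved by less than 1.5 times or the shLuc spread, counts that stayed at 0 included. No paired analysis was possible because the treated groups have 1 library each and share no replicate numbers with shLuc. Low counts limit Cxcl10, Psmb9 and the unexpressed members most.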

Other observations

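Many members lie next to each other in the genome, which the choice of members did not use. In mm10 16 of the 43 fall into 6 groups whose neighbours are within 100 kb. Psmb9, Tap1, Psmb8 and Tap2 share 34.2 kb of chromosome 17, and Ifit2, Ifit3 and Ifit1 share 99.3 kb of chromosome 19. Parp14, Dtx3l and Parp9 lie together on chromosome 16, as do Mx1 and Mx2, Rsad2 and Cmpk2 on chromosome 12, and Gbp3 and Gbp2 on chromosome 3. In shEtnk1/2 Psmb9 and Psmb8 were below both controls while Tap1, between them, had 7.62 RPKM against 7.93 and 7.20 in shLuc, and in Etn-deprived Ifit1 had 3.46 RPKM against 2.39 and 1.68 while Ifit3 had 1.13 against 1.14 and 1.22. These are values of single libraries, and the differences between neighbours were not tested.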
